A study of Mus musculus with 33 samples.

Results

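The clustered histone genes of the mouse were followed through the formation of the frontal bone, a flat bone of the skull vault. They were taken as every gene whose symbol begins with Hist1h, Hist2h, Hist3h or Hist4h in the GENCODE M21 annotation, which gave 70 genes of the 55401 in the count table. The choice used names and no measured value. The tissue was sampled on whole embryonic days, E9, E10, E11 and E12, and between days, E8.5, E9.5, E10.5, E11.5, E12.5, E13.5 and E14.5, with 3 libraries of polyA RNA at each of these 11 stages and 33 in all. No strain, sex, treatment or mutation is given for any stage. Nothing in the labels tells if a stage's 3 libraries are 3 embryos, 3 pools or 1 pool split, and each p-value is thus a statement on the scatter of the libraries at hand, some or all of which may be technical.

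Histones are the proteins around which DNA is wound. Histones H2A, H2B, H3 and H4 form the core of the nucleosome, and H1 binds the linker DNA between nucleosomes. Most genes of these clusters are switched on in S phase, when new chromatin is built, and their mRNAs normally end in a 3′ stem-loop, which the stem-loop binding protein Slbp holds, in place of a poly(A) tail. Some of them are also known to make longer, polyadenylated transcripts, above all in cells that have left the cell cycle. A library made from polyA RNA therefore reads a part of what these genes make, and the values below are levels of the RNA that reached such libraries. In bulk tissue, fewer cells that express a gene and less RNA per cell cannot be told apart.

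The stem-loop is shown first because it sets these transcripts apart. The known histone stem-loop was searched for in the GENCODE M21 transcripts, and 33 of the 70 genes hold one of 2 forms, written here as DNA from 5′ to 3′ with the paired stem in capitals and the loop in lower case.
Hist3h2ba: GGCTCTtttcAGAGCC
Hist1h4m: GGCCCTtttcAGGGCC
The first form was in 26 genes, of the H1, H2A, H2B and H3 classes. The second was in 7 genes, all of them H4 genes. Over all 55141 genes with a symbol, 36 held either form, which is 0.0653% of them. The other 37 clustered histone genes had no match to these letters in their annotated transcripts. The search fixed the loop as tttc, so a stem-loop with another loop could not be found. Some of these transcripts are short, such as those of Hist1h4k with 312 bases and Hist1h2bl with 381 bases. A transcript annotated without its 3′ end cannot be told from one that lacks the stem-loop.

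The promoters below are shown for the pair of genes that changed together most visibly, Hist3h2ba and Hist3h2a, and for Hist1h4i, the H4 gene with the most counts. They are the 250 bases before the RefSeq start (GRCm38.p6), 5′ to 3′ on the gene's strand, and capitals mark the TATA box letters TATAAA, the box CCAAT and an octamer on either strand. The octamer searched was ATTTGCAT.
Hist3h2ba (chr11:58948661-58948910, plus strand): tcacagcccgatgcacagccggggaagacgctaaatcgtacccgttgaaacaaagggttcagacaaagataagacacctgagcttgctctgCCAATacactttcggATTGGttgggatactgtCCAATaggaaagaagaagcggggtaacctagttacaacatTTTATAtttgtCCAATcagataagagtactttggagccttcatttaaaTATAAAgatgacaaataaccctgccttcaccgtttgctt
Hist3h2a (chr11:58954435-58954684, plus strand): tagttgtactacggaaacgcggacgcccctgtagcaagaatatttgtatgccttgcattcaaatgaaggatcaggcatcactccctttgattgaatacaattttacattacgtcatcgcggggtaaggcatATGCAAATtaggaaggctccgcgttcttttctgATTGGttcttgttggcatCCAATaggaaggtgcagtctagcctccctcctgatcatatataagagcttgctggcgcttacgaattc
Hist1h4i (chr13:22041363-22041612, minus strand): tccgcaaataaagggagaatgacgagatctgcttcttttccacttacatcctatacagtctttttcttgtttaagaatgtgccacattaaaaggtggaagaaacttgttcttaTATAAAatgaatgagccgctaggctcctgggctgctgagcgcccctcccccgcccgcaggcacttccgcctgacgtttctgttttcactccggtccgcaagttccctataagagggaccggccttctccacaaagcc
RefSeq windows of 300 bases, which add 50 bases after the start, were matched for 61 of the 70 genes. CCAAT was in 52 of the 61 (85.2%), against 37.4% of all 32851 promoters of the same length. It was in every H1, H2A, H2B and H3 window but in 3 of 12 H4 windows. TATAAA was in 35 of the 61 (57.4%), against 13.6% of all promoters. The octamer was in 13 of the 61 (21.3%), against 1.74% of all promoters, with 7 of 17 H2A windows, 6 of 16 H2B windows and none of H1, H3 or H4. These matches describe the letters and no binding.

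Column totals of the table ran from 14516518 to 19964404 counts. The clustered histone genes took between 0.00741% and 0.0456% of a library, 99993 counts over all 33 libraries together. After the filter on low counts, 50 of the 70 genes were tested among 20073 genes. Of the other 20, 6 had no count in any library, which were Hist1h2aa, Hist2h2aa1, Hist2h2aa2, Hist2h2bb, Hist2h3b and Hist2h3c1, Hist1h2ba and Hist1h2al had 1 count each, and the other 12 had 13 to 158 counts. Of the 6, Hist2h2aa2 and Hist2h3c1 have 0.0% of their stretches of 75 bases unique to the gene. The share is 11.1% in Hist2h2aa1, 21.5% in Hist2h3b, 50.2% in Hist2h2bb and 100% in Hist1h2aa. How shared reads were counted is not given, so a lack of counts need not mean a lack of RNA. Levels are CPM, a gene's counts as a share of the TMM-scaled library total on the usual CPM scale, and changes are log2 fold changes from edgeR's quasi-likelihood test with a Benjamini-Hochberg adjusted p below 0.05 as the threshold. Across the libraries, ribosomal protein genes took 8.25%, 6.11% and 4.05% of counts in the E12 libraries a, b and c, and 3.47%, 3.46% and 5.74% in the E13.5 libraries a, b and c, against 2.28% to 4.55% in all other libraries. Step counts and peak stages that move without E12 a or E13.5 c are also given without them.

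Few genes carried most of the signal. Hist3h2ba, an H2B gene of the small Hist3 cluster on chromosome 11 (58948920 to 58949533, GRCm38), held 25221 of the 99993 counts. Hist1h4i, an H4 gene of the large Hist1 cluster on chromosome 13 (22040636 to 22041362, GRCm38), held 22796. The next were Hist2h2be with 9749, Hist1h1c with 4780, Hist1h2bc with 4645, Hist3h2a with 4637 and Hist1h3c with 4333. By class, H2B genes took 44.4% of these counts, H4 genes 28.1%, H2A genes 13%, H3 genes 8.76% and H1 genes 5.82%.

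Per length, Hist3h2ba and Hist1h4i also led. Hist3h2ba averaged 73.5 CPM per kb of exon over the 33 libraries and Hist1h4i 56.5 CPM per kb. Hist1h3c followed with 12.2, Hist1h2ao with 7.99, Hist1h2bc with 7.15, Hist2h2be with 6.34, Hist1h4k with 5.50 and Hist1h1c with 5.39 CPM per kb. The median of the 70 genes was 0.799 CPM per kb.

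**Figure D1:**
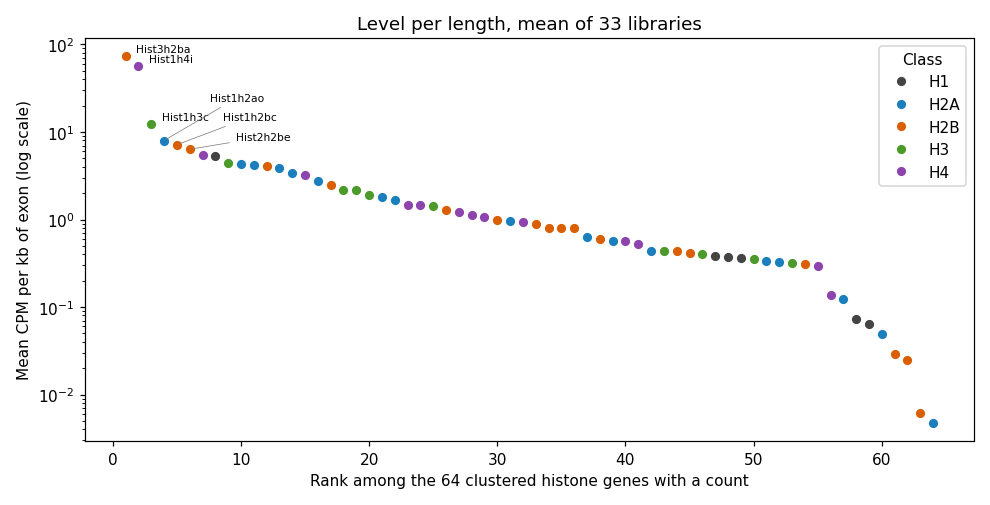
Mean level of each of the 64 clustered histone genes with a count, in CPM per kb of exon on a log axis, against its rank. Each point is 1 gene, coloured by histone class. Hist3h2ba at 73.5 and Hist1h4i at 56.5 CPM per kb stand above all others.

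Summed over the 70 genes, the level was lowest at E9 and E14.5 and highest at E12. The sum was 114.6 ± 5.93 CPM at E8.5, 86.8 ± 3.18 at E9, 114.8 ± 4.81 at E9.5, 142.0 ± 10 at E10, 147.5 ± 6.08 at E10.5, 197.8 ± 14 at E11, 179.7 ± 5.38 at E11.5, 416.0 ± 145 at E12, 206.2 ± 18.7 at E12.5, 248.4 ± 77.3 at E13.5 and 105.6 ± 2.87 CPM at E14.5 (SD, n = 3 each). At E12 the libraries a, b and c had 572.7, 389.5 and 285.7 CPM, and all 3 lay above every library of the other stages but E13.5 c, which had 337.6 CPM and lay above E12 c. The sum at E14.5 was 0.921 times that at E8.5 with TMM scaling and 1.24 times with library totals alone, so its direction is not settled. For the genes under 1000 bases it was 0.6 times, with 55.0 ± 1.53 CPM at E14.5 and 91.8 ± 5.15 CPM at E8.5.

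The single genes did not follow the sum alike. The F-test over the 11 stages called 43 of the 50 tested genes, 86% of them, against 95.3% of all genes tested. The highest stage mean lay at E12 in 31 of the 50 genes (62% of them, against 19.1% of all genes tested), at E13.5 in 9, at E8.5 in 8, and at E11.5 and E12.5 in 1 each. The lowest lay at E9 in 19 and at E14.5 in 11. Without the libraries E12 a and E13.5 c, the highest stage mean lay at E12 in 26 of the 50 genes (52% of them, against 16.6% of all genes tested). It lay at E8.5 in 12 and at E13.5 in 10. Many other short genes also rose at E12. Among 373 other tested protein-coding genes under 1000 bases, 62.5% were higher at E12 than at E11.5, and their peak stages were not counted.

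**Figure D2:**
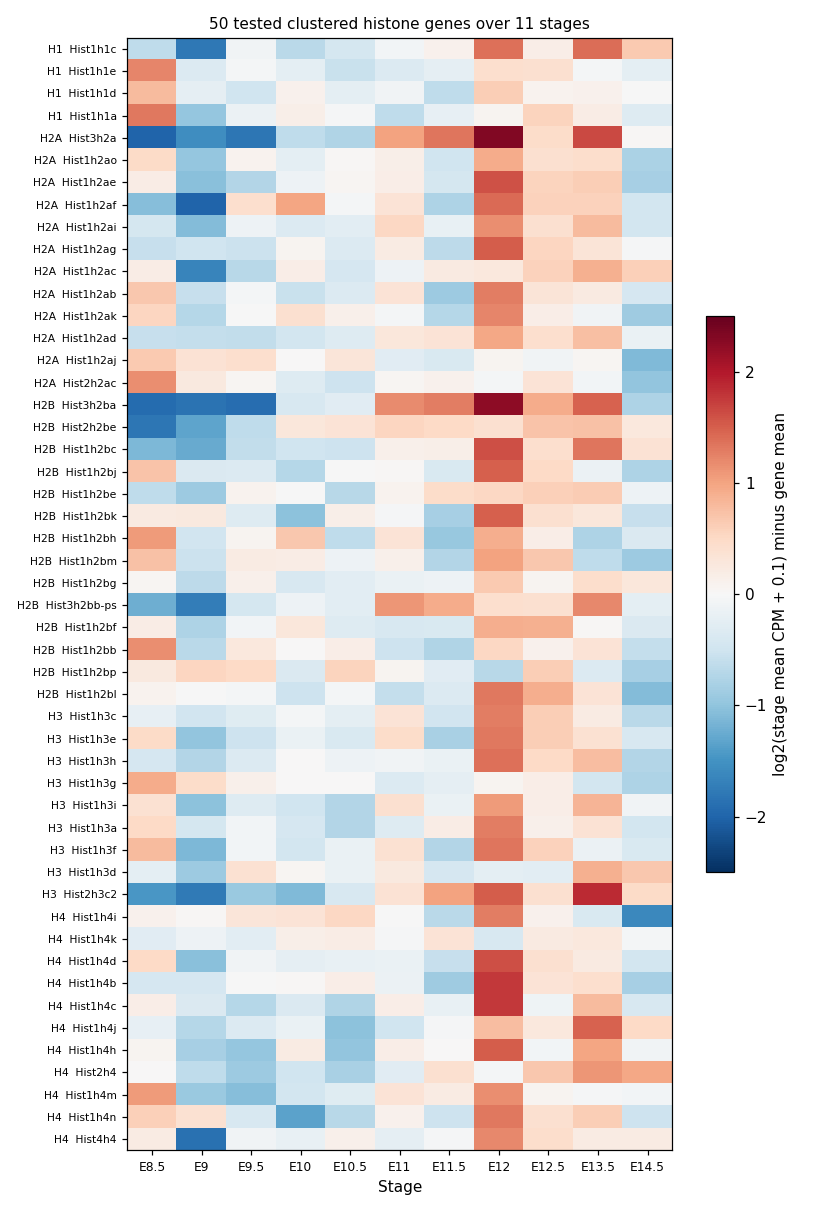
Stage means of the 50 tested clustered histone genes, as log2(CPM + 0.1) minus the mean of each gene over the 11 stages, with genes in rows ordered by class and level and stages in columns. The E12 column holds the highest value for 31 of the 50 genes, and Hist3h2ba and Hist3h2a are low up to E9.5.

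Between E14.5 and E8.5, the end and the start of the series, 7 clustered histone genes were higher at E14.5 (41.1% of all genes tested were) and 16 were lower (33.5% were). The 7 were the H2B genes Hist3h2ba, Hist2h2be and Hist1h2bc, the H2A gene Hist3h2a, the H1 gene Hist1h1c and the H3 genes Hist1h3d and Hist2h3c2. The 16 that were lower were spread over all classes, with Hist1h4i the most abundant of them. The median log2 fold change of the 50 was -0.62, against 0.16 for all genes tested. With library totals alone the medians were -0.19 and 0.59, and the split was 12 higher and 11 lower. Removing the trend with gene length gave 10 higher and 14 lower, with a median of -0.32. In 27 of the 50 genes the libraries of the 2 stages did not overlap, against 80.4% of all genes tested.

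Of the linker histones, 4 of 6 were tested. Hist1h1c had 9.41, 11.3 and 12.4 CPM in the E14.5 libraries, against 5.97, 3.55 and 3.80 CPM in the E8.5 libraries. Every E14.5 value lay above every E8.5 value, a log2 fold change of 1.32 ± 0.20 (SE, adjusted p = 1.04e-06 in edgeR's quasi-likelihood test). Hist1h1a went the other way, with 0.0535, 0.268 and 0.229 CPM in the E14.5 libraries and 0.913, 0.497 and 0.935 CPM in the E8.5 libraries (log2 fold change -2.05 ± 0.64, edgeR adjusted p = 0.00516). Hist1h1e was also lower (-1.63 ± 0.44, edgeR adjusted p = 0.00145). Its span overlaps the start of that of Hist1h2be on the same strand, though, and reads of the overlap may be shared. Hist1h1b, with 158 counts in all, did not pass the filter.

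Of the H2A genes, 12 of 20 were tested, and 1 was higher and 5 were lower. The 20 include Hist1h2aj and Hist1h2al, which the annotation calls pseudogenes. Of these, Hist1h2aj was tested, and 7.6% of its stretches of 75 bases are unique to it. Hist3h2a had 4.76, 6.05 and 5.40 CPM in the E14.5 libraries, against 0.913, 1.70 and 1.11 CPM in the E8.5 libraries. The stages did not overlap, and the log2 fold change was 2.12 ± 0.35 (SE, edgeR adjusted p = 2.92e-06). Hist1h2ao had 2.14, 2.19 and 1.74 CPM in the E14.5 libraries, against 4.70, 5.54 and 4.74 CPM in the E8.5 libraries. It was lower by a log2 fold change of -1.30 ± 0.34 (edgeR adjusted p = 0.00126), but only 6.9% of its stretches of 75 bases occur in no other gene, so its counts may be shared with near-identical copies. Hist1h2ae was also lower, at -1.03 ± 0.40 (edgeR adjusted p = 0.0222), and Hist1h2af stood at 0.69 ± 0.45 (edgeR adjusted p = 0.167) and did not pass.

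Of the H2B genes, 14 of 19 were tested, and 3 were higher and 5 were lower. Hist2h2be had 15.2, 20.4 and 17.0 CPM in the E14.5 libraries, against 4.77, 3.83 and 3.74 CPM in the E8.5 libraries. All 75-base stretches of Hist2h2be are unique to it (100%), and its log2 fold change was 2.09 ± 0.13 (SE, edgeR adjusted p = 1.3e-14). Hist1h2bc had 9.20, 7.66 and 9.38 CPM in the E14.5 libraries, against 3.58, 3.27 and 2.34 CPM in the E8.5 libraries, again with no overlap (1.52 ± 0.26, edgeR adjusted p = 4.54e-06). Hist3h2ba had 18.2, 16.4 and 16.4 CPM in the E14.5 libraries, against 6.53, 7.53 and 8.54 CPM in the E8.5 libraries. Its log2 fold change of 1.17 ± 0.24 (edgeR adjusted p = 6.88e-05) is smaller than its changes in between, described below.

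Of the H3 genes, 9 of 12 were tested. The most abundant, Hist1h3c, had 4.55, 4.50 and 4.21 CPM in the E14.5 libraries and 6.60, 5.89 and 5.90 CPM in the E8.5 libraries. The stages did not overlap, yet the log2 fold change of -0.47 ± 0.26 did not pass (edgeR adjusted p = 0.106). Hist1h3h stood at -0.32 ± 0.41 (edgeR adjusted p = 0.496), with 6.5% of its 75-base stretches unique. Hist1h3g was lower, at -1.85 ± 0.41 (edgeR adjusted p = 0.000212). The 2 H3 genes that were higher have few counts and were named after their values were seen. Hist1h3d had 0.802, 0.910 and 0.687 CPM in the E14.5 libraries, against 0.281, 0.497 and 0.351 CPM in the E8.5 libraries (1.07 ± 0.40, edgeR adjusted p = 0.0161). Hist2h3c2 had 22 counts over the E14.5 libraries and 1 count over the E8.5 libraries, a ratio of 16.9 per unit of scaled depth with an exact 95% counting interval of 2.73 to 696 (edgeR adjusted p = 0.00211).

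Of the H4 genes, 11 of 13 were tested, and 3 were lower while edgeR called none higher. Hist1h4i had 12, 12.2 and 11.7 CPM in the E14.5 libraries, against 42.3, 39.9 and 37.7 CPM in the E8.5 libraries. Every E14.5 value lay below every E8.5 value (log2 fold change -1.74 ± 0.20, edgeR adjusted p = 8.57e-09). Hist1h4k, with 0.24 ± 0.35 (edgeR adjusted p = 0.552), and Hist1h4b, with -0.48 ± 0.63 (edgeR adjusted p = 0.495), did not pass.

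**Figure D3:**
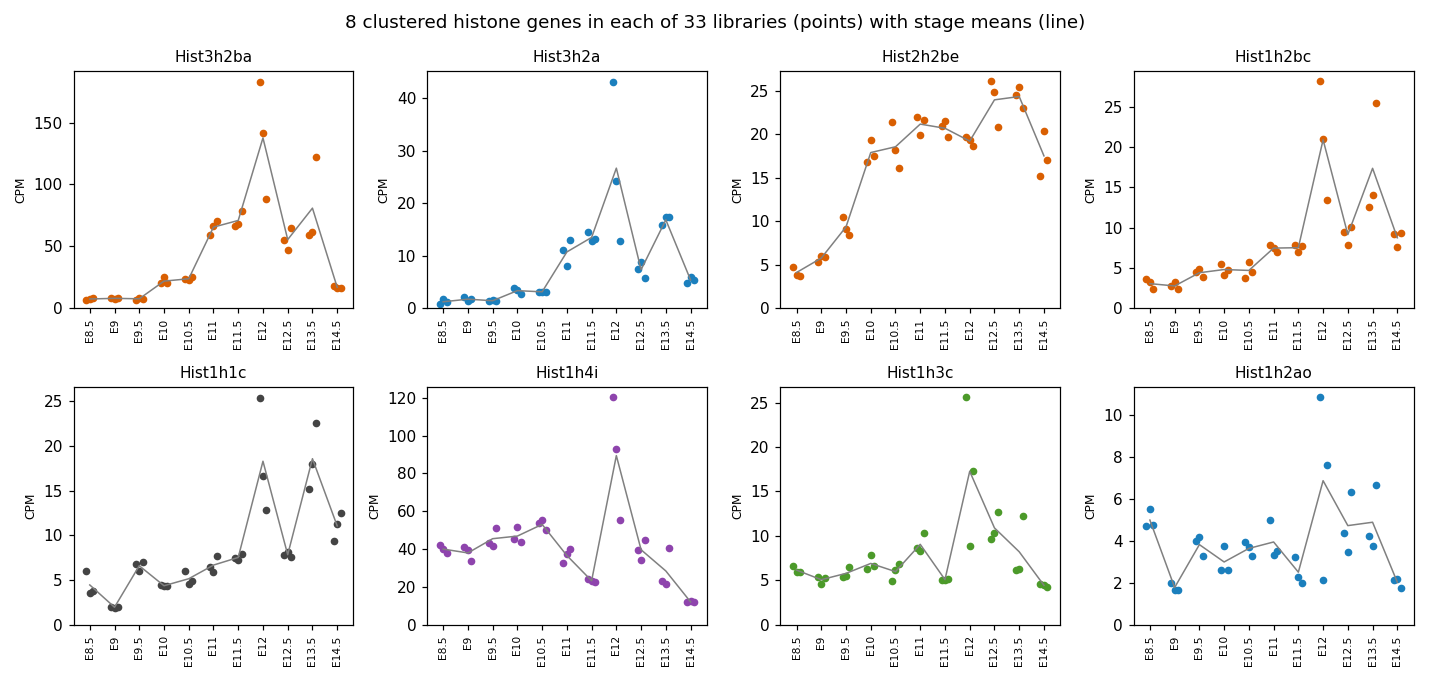
CPM of 8 clustered histone genes in each of the 33 libraries (points, coloured by histone class) with stage means (lines), stages from E8.5 to E14.5 on the x axis. Hist2h2be has means of 17.5 to 24.4 CPM from E10 on, Hist3h2ba and Hist3h2a are higher from E10, and Hist1h4i ends at 12 CPM, its lowest mean.

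Of the 7 genes that were higher at E14.5, 6 have long annotated transcripts. Of the 15 tested genes with an exonic length of 1000 bases or more, 6 were higher at E14.5 than at E8.5 and 3 lower, with a median log2 fold change of 0.51. Of the 35 tested genes under 1000 bases, Hist3h2ba alone was higher and 13 were lower, with a median of -0.94. A replication-dependent histone transcript is short, and a longer exonic length means that the annotation holds a longer transcript of the gene. For example, the annotated transcript of Hist3h2a runs on for 1643 bases after its stem-loop, that of Hist1h1c for 840 bases and that of Hist3h2ba for 169 bases. Of the 10 tested genes with the poly(A) signal AATAAA in the last 50 bases of an annotated transcript, 4 were higher and 1 was lower, with a median of 0.93. Of the 40 tested genes without it, 3 were higher and 15 lower, with a median of -0.92. These are counts in groups of one set of genes and carry no test. For the stem-loop, of the 27 tested genes with a match, 5 were higher and 8 lower (median -0.65), and of the 23 without a match, 2 were higher and 8 lower (median -0.54). This split also depends on the letters searched and on how far the annotated transcripts reach at the 3′ end. Among 373 other tested protein-coding genes under 1000 bases, 35.9% were higher at E14.5 than at E8.5 and 27.6% were lower, with a median of 0.11.

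**Figure D4:**
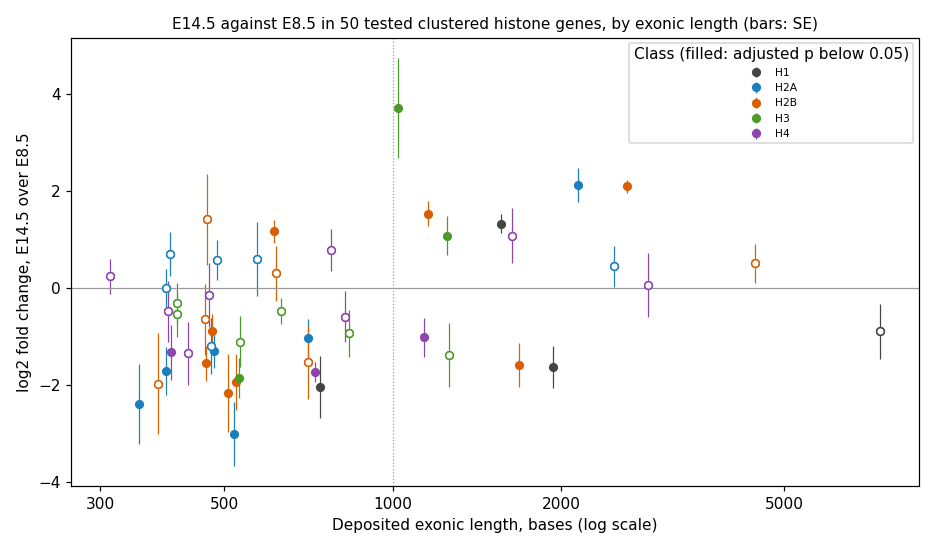
Log2 fold change at E14.5 over E8.5 of the 50 tested clustered histone genes, with SE bars, against deposited exonic length on a log axis. Filled points passed an adjusted p of 0.05, open points did not, and the dotted line marks 1000 bases. Right of the line 6 genes were higher and 3 lower, and left of it 1 was higher and 13 lower.

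Several clustered histone genes start head to head, so that a pair shares the short stretch between the starts. There were 15 such pairs with their starts 172 to 659 bases apart. Both members were tested in only some of these pairs. At E14.5 against E8.5 some of them went the same way, such as Hist1h2bh (-1.59) and Hist1h3f (-1.39), and others did not. Hist2h2be, with a log2 fold change of 2.09, starts 238 bases from the H2A gene Hist2h2ac, which was lower by -3.0 ± 0.66 (edgeR adjusted p = 0.000171). Hist2h2ac had 0.160, 0.0535 and 0.0458 CPM in the E14.5 libraries, against 0.843, 0.639 and 0.702 CPM in the E8.5 libraries. Hist1h2bc, with 1.52, starts 250 bases from Hist1h2ac, which stood at 0.44 and did not pass. Whether the members of a pair differ from each other was not tested.

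E10.5 against E8.5 shows the first part of this course. Of the 50 tested genes, 4 were higher at E10.5 (28.2% of all genes tested were) and 9 were lower (21.3% were), and the median log2 fold change was -0.42, against 0.09 for all genes tested. The 4 were Hist2h2be, Hist3h2ba, Hist3h2a and Hist1h2af. Hist2h2be had 21.4, 18.2 and 16.1 CPM at E10.5 and 4.77, 3.83 and 3.74 CPM at E8.5 (2.18 ± 0.13, edgeR adjusted p = 3.05e-14). Hist3h2ba had 23.9, 22.5 and 25.2 CPM at E10.5 and 6.53, 7.53 and 8.54 CPM at E8.5 (1.66 ± 0.24, edgeR adjusted p = 8.67e-07). The 9 that were lower included Hist1h1e, Hist1h1a and Hist1h3g, and they were 4 without E10.5 library b and 5 without E10.5 library c. This comparison and that of E14.5 share the E8.5 libraries. Removing the trend with gene length gave 7 higher and 6 lower, with a median of -0.18. A fit of only the libraries compared, in which 31 of the genes were tested, gave a median of -0.17, and library totals alone gave 6 higher and 6 lower with a median of -0.25.

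The next comparison spans the middle of the series. At E12.5 against E10.5, 11 of the 50 were higher (18.8% of all genes tested were) and none was lower in edgeR or DESeq2 (17.2% were), 1 at an unadjusted p below 0.05. The median log2 fold change was 0.77, against 0.03 for all genes tested. Hist3h2ba had 54.8, 46.8 and 64.8 CPM at E12.5 and 23.9, 22.5 and 25.2 CPM at E10.5 (1.22 ± 0.21, edgeR adjusted p = 2.69e-05). Hist1h3c had 9.64, 10.3 and 12.7 CPM at E12.5 and 4.93, 6.12 and 6.83 CPM at E10.5 (0.86 ± 0.24, edgeR adjusted p = 0.00593). Without E10.5 library c, 5 genes were higher. With the E11.5 libraries in place of those of E12.5, 8 were higher and 2 lower, the median turned to -0.13, and Hist1h3c turned to -0.24, so the direction of the median holds for E12.5 and not for E11.5.

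At E14.5 against E12.5 more genes were lower than higher. Of the 50, 17 were lower (28.6% of all genes tested were) and 2 were higher (25.3% were), with a median of -0.87 against -0.03 for all genes tested. Hist3h2ba had 18.2, 16.4 and 16.4 CPM at E14.5 and 54.8, 46.8 and 64.8 CPM at E12.5 (-1.71 ± 0.21, edgeR adjusted p = 6.95e-08). Hist1h4i had 12, 12.2 and 11.7 CPM at E14.5 and 39.4, 34.4 and 45.0 CPM at E12.5 (-1.72 ± 0.20, edgeR adjusted p = 2.16e-08). Of the 35 genes under 1000 bases, 16 were lower and none higher in edgeR, and of the 15 longer genes 1 was lower and 2 were higher. The 2 were Hist1h1c (0.50 ± 0.19, edgeR adjusted p = 0.0263) and Hist1h3d (1.09 ± 0.38, edgeR adjusted p = 0.0177). Neither passed without E12.5 library a, E12.5 library c or E14.5 library b, and 1 passed without E14.5 library c. With the E11.5 libraries in place of those of E12.5, 4 were lower and the median was -0.15. The comparisons share stages with each other.

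Between neighbouring stages, the first change was a dip at E9. At E9 against E8.5, 15 of the 50 were lower (7.66% of all genes tested were) and 1 was higher (2515 of all 20073 genes tested were), and the median log2 fold change was -1.07, against 0.03 for all genes tested. The 63 genes outside the 7 with most counts summed to 23.5 ± 1.21 CPM at E9 and 48.2 ± 2.86 CPM at E8.5 (SD, n = 3 each). Hist1h1c had 2.0, 1.84 and 1.98 CPM in the E9 libraries, against 5.97, 3.55 and 3.80 CPM in the E8.5 libraries (-1.19 ± 0.25, edgeR adjusted p = 0.000748). Hist1h2ao had 2.0, 1.66 and 1.64 CPM in the E9 libraries, against 4.70, 5.54 and 4.74 CPM in the E8.5 libraries (-1.49 ± 0.36, edgeR adjusted p = 0.00337). Of the 7 genes with most counts, Hist1h1c alone was called lower, and Hist3h2ba, Hist1h4i, Hist2h2be, Hist1h2bc, Hist3h2a and Hist1h3c were not. Hist1h4i had 40.9, 39.5 and 33.4 CPM in the E9 libraries, against 42.3, 39.9 and 37.7 CPM in the E8.5 libraries (-0.07 ± 0.19, edgeR adjusted p = 0.834), and Hist2h2be was the 1 gene that was higher (0.49 ± 0.15, edgeR adjusted p = 0.0154), a call that was lost without E8.5 b, E8.5 c or E9 b. The count of 15 was 9 without E9 library a and 11 without any other single library of these stages. Of 373 other coding genes under 1000 bases, 5.09% were lower.

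RNAs that carry no poly(A) tail were looked up beside the dip, in a list added after the data were seen. The small nuclear RNA Rn7sk had 0.543 CPM at E9 and 3.56 CPM at E8.5, and Rpph1, the RNA of ribonuclease P, had 4.28 CPM at E9 and 14 CPM at E8.5 (means of 3). Both were lower at E9 by edgeR. Malat1, the other of the 3 tested RNAs of this list, had 121.5 CPM at E9 and 116.1 CPM at E8.5. The part of such RNAs in the result was not tested.

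At E9.5 against E9, 6 of the 50 were higher (11.1% of all genes tested were) and none was lower in edgeR or DESeq2 (11.7% were), also none at an unadjusted p below 0.05. Hist1h1c came back to 6.78, 6.04 and 6.96 CPM in the E9.5 libraries, against 2.0, 1.84 and 1.98 CPM in the E9 libraries (1.76 ± 0.23, edgeR adjusted p = 1.46e-06). At E10 against E9.5, 3 were higher (2905 of all 20073 genes tested were), namely Hist3h2ba, Hist3h2a and Hist2h2be, and Hist1h1c was lower (12.3% were). The call of Hist1h1c was lost on leaving out any library of E9.5 or E10 but E9.5 b, while those of the other 3 genes held without each of the 6 libraries. Hist3h2ba stood at 20.4, 25.3 and 20.2 CPM in the E10 libraries, against 7.07, 8.07 and 7.90 CPM in the E9.5 libraries (1.51 ± 0.23, edgeR adjusted p = 1.11e-05). Few genes moved at E10.5 against E10, with 1 higher (5.73% were) and 2 lower (2.74% were), and none of these calls held without E10 a, E10 b, E10.5 b or E10.5 c.

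A second stride of the Hist3 genes came at E11. At E11 against E10.5, 5 of the 50 were higher (19.2% of all genes tested were) and 1 was lower (17.3% were). The 5 were 2 without E10.5 c, 3 without E11 b or E11 c, 8 with DESeq2, 10 with the trend with gene length removed, 11 with library totals alone and 9 without E12 a and E13.5 c. They included Hist3h2ba (1.46 ± 0.21, edgeR adjusted p = 2.05e-06), Hist3h2a (1.77 ± 0.28, edgeR adjusted p = 7.4e-06) and the third Hist3 gene, Hist3h2bb-ps, a pseudogene by its symbol (1.65). The calls of Hist3h2ba and Hist3h2a held without each of the 6 libraries, and that of Hist3h2bb-ps was lost without E10.5 b, E10.5 c, E11 b or E11 c. Hist3h2ba had 59.5, 66.8 and 70.3 CPM in the E11 libraries, against 23.9, 22.5 and 25.2 CPM in the E10.5 libraries. Hist3h2ba over Hist3h2a had a mean ratio between 3.19 and 7.97 in CPM over the stages, while the stage mean of Hist3h2ba ranged between 7.53 and 137.6 CPM. The 1 gene that was lower at E11 was Hist1h4i (-0.54 ± 0.19, edgeR adjusted p = 0.0264), a call that was lost without E10.5 a, E10.5 b, E11 a or E11 b. At E11.5 against E11, 5 were lower (12.3% of all genes tested were) and none was higher in edgeR or DESeq2 (10.7% were), also none at an unadjusted p below 0.05. The 5 were 1 without E11 c, 2 without E11.5 c and 3 without E11 b or E11.5 a. Hist1h4i was among them (-0.66 ± 0.19, edgeR adjusted p = 0.0132), and its call was lost without E11 c.

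The step with the most calls was E12. At E12 against E11.5, 31 of the 50 were higher (33.3% of all genes tested were) and 1 was lower (35.6% were), with a median log2 fold change of 1.43 against -0.08 for all genes tested. Hist1h4i had 120.3, 92.7 and 55.3 CPM in the E12 libraries a, b and c, against 24.1, 23.1 and 22.3 CPM in the E11.5 libraries (1.94 ± 0.20, edgeR adjusted p = 1.35e-09). Hist3h2ba had 183.0, 141.6 and 88.2 CPM in the E12 libraries, against 66.5, 68.1 and 78.2 CPM in the E11.5 libraries (0.95 ± 0.20, edgeR adjusted p = 0.000134). Hist1h4b had the largest change of the 31, with 7.0, 3.55 and 1.5 CPM in the E12 libraries and 0.463, 0.555 and 0.632 CPM in the E11.5 libraries (2.82). All classes took part, with 2 of 4 H1 genes, 8 of 12 H2A genes, 8 of 14 H2B genes, 6 of 9 H3 genes and 7 of 11 H4 genes. Hist2h2be did not pass, with 19.7, 19.3 and 18.7 CPM in the E12 libraries and 20.9, 21.5 and 19.7 CPM in the E11.5 libraries (-0.11 ± 0.12, edgeR adjusted p = 0.412), and Hist1h4k was the 1 gene that was lower (-0.79), a call that was lost without E11.5 a, E11.5 c, E12 b or E12 c.

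Several values move with this step. Among the 373 other protein-coding genes under 1000 bases, 62.5% were higher at E12 than at E11.5, beside the 62% of the clustered histone genes, with a median of 1.39. After the trend with gene length was removed, 13 of the 50 were higher and 5 lower. Without E12 library a, 23 were higher. Library a was the highest of the E12 libraries in 42 of the 50 genes, and library c the lowest in 31 and library b in 16. Library b was the lowest for Hist1h3c, with 25.7, 8.83 and 17.3 CPM in a, b and c, and for Hist1h2ao, with 10.9, 2.13 and 7.61 CPM. Globin genes took 2.42%, 2.04% and 1.10% of counts in a, b and c, against 0.278% to 0.297% in the E11.5 libraries. The 5 red cell markers were all higher, with a sum of 89.2 to 107.5 CPM at E12 and 24.3 to 28.9 CPM at E11.5. The part of these values in the result was not tested.

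The level came down again at E12.5. At E12.5 against E12, 19 of the 50 were lower (31.0% of all genes tested were), and Hist2h2be alone was higher (32.0% were), a call that was lost without E12.5 a or E12.5 b. Among the 373 other protein-coding genes under 1000 bases, 62.2% were lower at this step and 6.43% higher, with a median of -1.25. Without E12 library a, 8 clustered histone genes were lower, and after the trend with gene length was removed, 4 were lower and 7 higher. At E13.5 against E12.5, 7 were higher (27.2% of all genes tested were) and 2 were lower (25.9% were). Without E13.5 c these were 4 and 3, without E12 a and E13.5 c together 5 and 3, and with the trend with gene length removed 7 and 5. None was lower without E12.5 a or E13.5 a, and 1 was without E12.5 c or E13.5 b. Hist1h1c had 15.2, 18.0 and 22.6 CPM in the E13.5 libraries, against 7.80, 8.15 and 7.53 CPM in the E12.5 libraries (1.24 ± 0.19, edgeR adjusted p = 2.09e-06). Library c was the highest of the E13.5 libraries in 38 of the 50 genes, for example in Hist3h2ba with 58.9, 61.4 and 122.4 CPM in a, b and c.

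The last step was down. At E14.5 against E13.5, 19 of the 50 were lower (26.9% of all genes tested were) and none was higher in edgeR or DESeq2 (24.0% were), also none at an unadjusted p below 0.05. Hist3h2ba had 18.2, 16.4 and 16.4 CPM in the E14.5 libraries, against 58.9, 61.4 and 122.4 CPM in the E13.5 libraries (-2.25 ± 0.22, edgeR adjusted p = 6.63e-10). Hist3h2a had 4.76, 6.05 and 5.40 CPM in the E14.5 libraries, against 15.8, 17.3 and 17.4 CPM in the E13.5 libraries (-1.64 ± 0.26, edgeR adjusted p = 4.77e-06). Hist2h2be was also lower (-0.48 ± 0.11, edgeR adjusted p = 0.000878). Without E13.5 library c, 10 of the genes were lower.

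**Figure D5:**
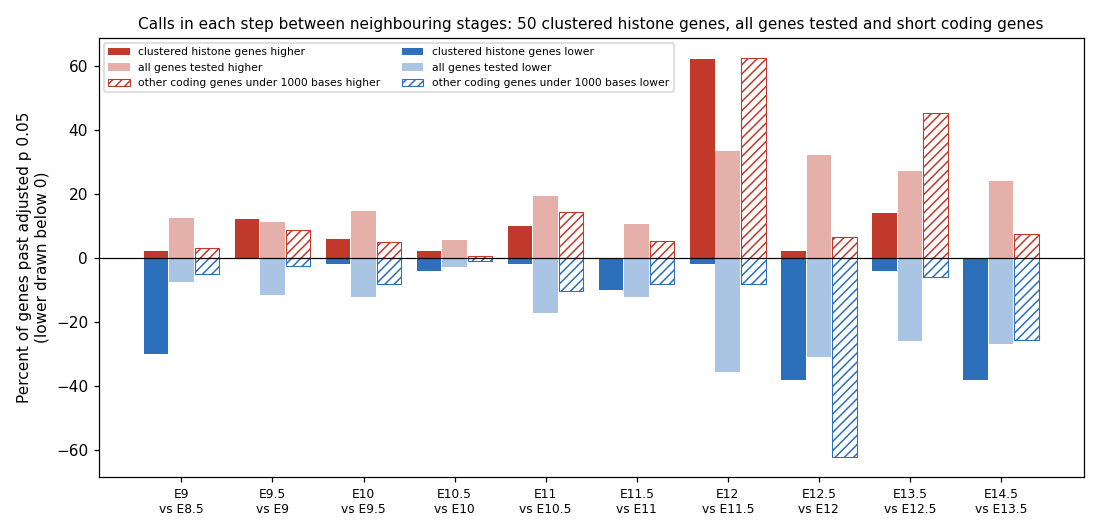
Percent of genes past an adjusted p of 0.05 in each step between neighbouring stages, higher drawn above 0 and lower below 0, for the 50 clustered histone genes (solid), all 20073 genes tested (pale) and 373 other protein-coding genes under 1000 bases (hatched). The clustered histone genes stand at 30% lower at E9 against 7.66% of all genes, and at 62% higher at E12 beside 62.5% of the short coding genes.

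The other genes of histone supply were read from fixed lists, and most of them fell. The replacement histone genes, many of which are spliced, polyadenylated and used outside S phase, had 1 of 11 higher at E14.5 than at E8.5 and 9 lower. Their median log2 fold change was -0.94. Of all genes tested, 41.1% were higher in this comparison and 33.5% lower. H2afx, which marks DNA breaks when phosphorylated, averaged 97.7 ± 2.87 CPM at E14.5 and 361.6 ± 17.4 CPM at E8.5 (SD, n = 3 each; -1.89). H1fx was lower by -1.83, H2afy2 by -1.37 and H2afz by -1.33, while Cenpa, the centromeric H3, stood at -0.94. H3f3a and H3f3b, which encode the same H3.3 protein, were lower by -0.44 and -0.34, and H1f0, a linker histone of resting cells, was higher by 0.23. All of these passed in edgeR. With library totals alone, the median of all genes tested was 0.59 in this comparison, against 0.16 with TMM scaling. Falls as small as those of H3f3a and H3f3b may therefore turn on the scaling, and their direction is not settled. The H3.3 genes are far above the clustered ones in these libraries, with H3f3b at 549.3 ± 40.8 CPM at E14.5 and 693.7 ± 8.97 CPM at E8.5.

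Of 20 genes for the 3′ end formation, export and decay of histone mRNAs, 19 were lower at E14.5 relative to E8.5 and 1 was higher. Their median was -0.84. For this list and those that follow, the shares among all genes tested were 33.5% lower and 41.1% higher. Slbp had 90.1 ± 3.87 CPM at E14.5 and 223.3 ± 5.43 CPM at E8.5 (-1.31 ± 0.10, edgeR adjusted p = 5.05e-13). Npat, the coactivator of histone genes at the histone locus body, was the 1 that was higher (0.40 ± 0.18, edgeR adjusted p = 0.0479). The cap-binding subunit Ncbp1 (-1.55), Zfp473 (-1.42), a zinc finger protein of the processing complex, and Sympk (-1.31), its scaffold, fell most beside Slbp. All 14 histone chaperones were lower, with a median of -1.55, led by Mcm2 (-2.29), Nap1l1 (-2.25), Chaf1a (-2.06), the large subunit of the chromatin assembly factor, and Nasp (-1.99). All 16 S phase genes were lower too, with a median of -2.16 and a sum of 1793 to 1947 CPM at E14.5 and 7052 to 7196 CPM at E8.5. The S phase and chaperone lists share Mcm2. Of 8 genes of G2 and M phase, 7 were lower and none higher.

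The lists were also read beside the clustered histone genes in the later comparisons. At E12.5 against E10.5, 14 of 16 S phase genes were lower (median -0.57), while 11 of the 50 clustered histone genes were higher and none lower. At E14.5 against E12.5, 13 of 16 S phase genes were lower and none higher (median -0.896). Of the 50 clustered histone genes, 17 were lower and 2 higher there. Of all genes tested, 18.8% were higher and 17.2% lower at E12.5 against E10.5, so the 11 higher histone genes (22%) stand near that share. At E14.5 against E12.5, 25.3% of all genes tested were higher and 28.6% lower. At E12 against E11.5, 15 of 16 S phase genes were higher (median 0.96), as were all 11 replacement histone genes (median 0.98), 13 of 14 chaperones and 10 of 20 genes of 3′ end formation, 4 of which were lower. Of all genes tested, 33.3% were higher at that step and 35.6% lower. At E9 against E8.5, 6 of 16 S phase genes were lower (median -0.23), against 7.66% of all genes tested. The difference between the lists was not tested.

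The tissue label was checked against markers. The 7 osteoblast markers summed to 2420 to 2610 CPM at E14.5 and 61.6 to 68.3 CPM at E8.5, with 5 higher and none lower. Runx2 averaged 45.0 CPM at E14.5 and 0.576 CPM at E8.5, and Bglap stayed near 0, at 0.346 CPM at E14.5 and 0.215 CPM at E8.5. The 5 neural progenitor markers were present at the start and all lower at the end, with sums of 145.7 to 149.4 CPM at E14.5 and 669.3 to 699.5 CPM at E8.5, and the 5 neuron markers summed to 463.4 to 492.0 CPM at E14.5 and 110.5 to 116.1 CPM at E8.5. Macrophage markers summed to 123.6 to 141.3 CPM at E14.5 and 0.351 to 1.14 CPM at E8.5, with Tyrobp and C1qa at 0 counts at E8.5. Muscle markers summed to 296.5 to 330.3 CPM at E14.5 and 1.14 to 1.68 CPM at E8.5, with Myog at 0 counts at E8.5. Surface epithelium markers summed to 1055 to 1214 CPM at E14.5 and 97.2 to 108.9 CPM at E8.5. All 5 markers of each of these 3 lists were higher, where 41.1% of all genes tested were higher and 33.5% lower. Of the 5 red cell markers 4 were lower and 1 was higher, and the 1 tested germ cell marker of 3, Ddx4, was higher. The part of these cell types in the course of the histone genes was not tested. The genes whose log2 CPM over the 33 libraries was most like the summed level of the clustered histone genes were Grcc10 (Pearson r = 0.956), Pafah1b3 (0.948), Ap2m1 (0.945), Atp6v1h (0.945) and Uchl1 (0.944), a description over libraries that share stages and depth.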

How the data were processed

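Gene counts from 33 libraries were deposited as raw whole-number counts by the authors, per the file headers, with an exonic length for each gene. Reads were trimmed with cutadapt 1.9.1, aligned with HISAT2 2.0.1 to GRCm38 and counted with HTSeq 0.6.1, per the submitters' processing notes. The annotation release, the strand setting and the treatment of reads that map to several genes are steps not given in the sources used here, so counts of near-identical histone copies are uncertain. Column totals ran from 14516518 to 19964404, and TMM factors from 0.797 to 1.175. Intervals on counts cover counting error only.

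Counts were fitted over all 11 stages with edgeR 4.0.16 (R 4.3.3; TMM, filterByExpr by stage, quasi-likelihood test, 22 residual degrees of freedom, prior count 2 for log CPM), and p-values were adjusted by Benjamini-Hochberg over 20073 genes. DESeq2 1.42.0 was an alternative. The test was tried on data simulated for all 33 libraries from each gene's mean over them (19097 genes). For E14.5 against E8.5 it recovered 64.2%, 97.0% and 100% of genes changed 1.5-, 2- and 4-fold. The changed genes were drawn above a floor on expected counts that most tested clustered histone genes do not reach. The rates therefore do not describe most clustered histone genes. No library pair of a stage was a duplicate. Symbols, coordinates and transcripts came from GENCODE M21 (GRCm38) and promoters from RefSeq.

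Named by rule were, in each histone class, the 3 genes with the highest CPM per kb and up to 2 rises and 2 falls at E14.5 against E8.5 (no overlap, a mean of at least 5 CPM), 16 in all, then the 4 listed genes that changed most and 8 fixed ones, and the 5 genes most like the summed level. Any other gene named was picked with its values in view. The members and lists were chosen with earlier results of these data known. The list of RNAs without a poly(A) tail, the short coding genes, and the values without E12 a and E13.5 c together were added after the data were seen, as were the step calls of single genes with 1 library left out.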

Additional observations from a re-analysis of the deposited data

How the results depend on the processing

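Scaling by library totals alone gave 12 clustered histone genes higher at E14.5 than at E8.5, against 7, and a summed level 1.24 times that of E8.5, against 0.921, while genes under 1000 bases alone gave 0.6 with TMM scaling. Removing the trend with gene length gave 7 genes higher at E10.5 than at E8.5, against 4. None was lower at E12.5 than at E10.5 with all libraries, but 1 was with no filter, with the length trend removed, with only the libraries compared, without E11.5, E12 and E13.5, and without E12 a and E13.5 c together, and 2 were with E11.5 in place of E12.5. At E14.5 against E12.5, 1 was higher with no filter, against 2, and 4 were lower with E11.5 in place of E12.5, against 17. That replacement also turned Hist1h2af to 0.35 at E14.5 and Hist1h3c to -0.24 against E10.5. The cause was not tested.

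Leaving out 1 library at a time gave 6 to 7 genes higher and 14 to 17 lower at E14.5 relative to E8.5, 3 to 5 higher and 4 to 8 lower at E10.5 relative to E8.5, 5 to 11 higher and 0 to 0 lower at E12.5 than at E10.5, and 0 to 2 higher and 12 to 19 lower at E14.5 than at E12.5. Over the 10 steps the calls summed to 49 to 60 higher and 54 to 67 lower, against 55 and 65, and 41 to 45 genes changed over the stages.

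The column letters are not tied to replicate numbers, and deviations of libraries with the same letter correlated at -0.0686 to 0.0749. With the letter as a replicate block, 7 genes were higher and 17 lower at E14.5 relative to E8.5. Of 982 values for 60 single-gene results, 901 kept their direction and side of the threshold, 44 lost a call, 35 gained one and 2 reversed. Low counts limit the 20 genes that were not tested, and sequence shared with other genes may hold down the counts of some.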
